A study of Rattus norvegicus with 89 samples.

Results

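Keratins 8, 18 and 19 (Krt8, Krt18, Krt19), vimentin (Vim), the hyaluronan receptor Cd44, annexins A1 and A2 (Anxa1, Anxa2) and S100a10 are genes whose RNA or protein is known from injured and regrowing kidney tubules. They were taken by gene symbol from the deposited table of rat kidney arrays: 10 of its 31099 probe sets, an Affymetrix group of short probes for 1 transcript, carry 1 of these 8 symbols. All 8 genes, each through its brighter probe set, passed the filter on dim genes and are among the 11415 of 14217 named genes that were tested.

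The kidneys came from 89 Sprague-Dawley rats of the stock Crl:CD(SD), bought at about 7-8 weeks of age, 44 males and 45 females with 1 array each. The submitters gave 1 of 7 compounds daily and sampled after 1 or 5 days: Saline, Gentamycin (gentamicin) and Tobramycin, both aminoglycoside antibiotics, Cisplatin, a platinum drug used against tumours, Cadmium, a heavy metal, Doxorubicin, an anthracycline, and ValproicAcid (valproic acid), an anticonvulsant. Untreated naive rats made the 15th group. Groups held 6 rats, 3 of each sex, except saline at day 1 with 7, saline at day 5 with 5 and doxorubicin at day 5 with 5. The sources used here do not give doses, and the design text counts 5 of the compounds as nephrotoxicants and 2 as controls. RNA was extracted from 1 homogenate of apical pieces of both kidneys of a rat, so each value is a mixture of all cell types of those pieces, and fewer cells of a type cannot be told apart from less RNA per cell.

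In healthy tubules the simple keratins Krt8 and Krt18 pair into the filaments of epithelial cells, Krt19 is best known from ducts and from the urothelium that lines the renal pelvis, and vimentin fills the same role in fibroblasts, endothelium and podocytes. Injured proximal tubule cells flatten, lose their brush border and take up vimentin and keratin filaments and surface Cd44 as they regrow. The annexins are calcium-dependent membrane-binding proteins: Anxa1 restrains inflammation, and Anxa2 forms a heterotetramer with S100a10, which stabilises it at the plasma membrane. Havcr1 (kidney injury molecule 1), Lcn2, Clu and Spp1 are established markers of tubular injury. Their signals in single rats are quoted beside the 8 genes for cisplatin and doxorubicin at day 5 only.

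Signals are in the units of the deposited MAS5 values after every array was brought to 1 common trimmed mean. A change is a difference of log2(signal + 16) between groups with the sex of the rats as a term in limma, given with its standard error (SE), and a gene passed where its p-value, adjusted over all 11415 genes by Benjamini-Hochberg, was under 0.05. The labels contradicted or lacked the treatment text for 5 of the 89 rats, which were kept in the group of their title. Markers of kidney cells were present: the proximal tubule genes Slc34a1 and Lrp2, the loop gene Umod, the collecting duct gene Aqp2 and the podocyte gene Nphs1 exceeded the filter limit on 89 of 89 arrays. So did the macrophage genes Lyz2, Csf1r and C1qa, although Cd163 did so on 0. Of the T cell genes Cd3g exceeded it on 78 arrays and Cd3e and Cd8a on 0. Saline rat 1F106 of day 5 stood apart in RNA integrity, with a GAPDH 3' to 5' log2 ratio of 1.579 against 0.257 to 0.588 in the other 4, so values without it stand beside the day 5 results named below. Without it none of the 8 genes passed in any of the 6 treatment comparisons of day 5.

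None of the 8 genes passed in any of the 12 comparisons of a treatment with the saline rats of its day, that is in 0 of 96 tests, and 10 of the 96 had an unadjusted p under 0.05. Few genes of any kind passed. The share of all genes that passed was 0% for gentamicin, 0.0613% for tobramycin, 0% for cisplatin, 0.0263% for cadmium, 0.0438% for doxorubicin and 0.0788% for valproic acid at day 1. At day 5 it was 0% for gentamicin, tobramycin, cadmium and valproic acid, 0.00876% for cisplatin and 0.114% for doxorubicin. Fitting all 89 arrays at once again called 0 of 96, against 0.123%, 0.517%, 0%, 0.0526%, 0.0526% and 0.228% of all genes at day 1 and 0.0175%, 0%, 0.412%, 0.0613%, 0.377% and 0.149% at day 5, in the order of the compounds above. The 6 comparisons of a day share their saline rats.

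The share of all genes with an unadjusted p under 0.05, against which the counts of such genes below are to be read, ran lower for some groups than for others. It was 4.61% for gentamicin, 7.4% for tobramycin, 5.61% for cisplatin, 5.79% for cadmium, 9.62% for doxorubicin and 9.19% for valproic acid at day 1, where 1, 1, 0, 1, 1 and 1 of the 8 genes had such a p, Krt18 in each case. At day 5 it was 6.25%, 4.98%, 8.06%, 3.5%, 8.47% and 6.62%, and 1, 1, 2, 0, 1 and 0 of the 8 had one.

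**Figure D1:**
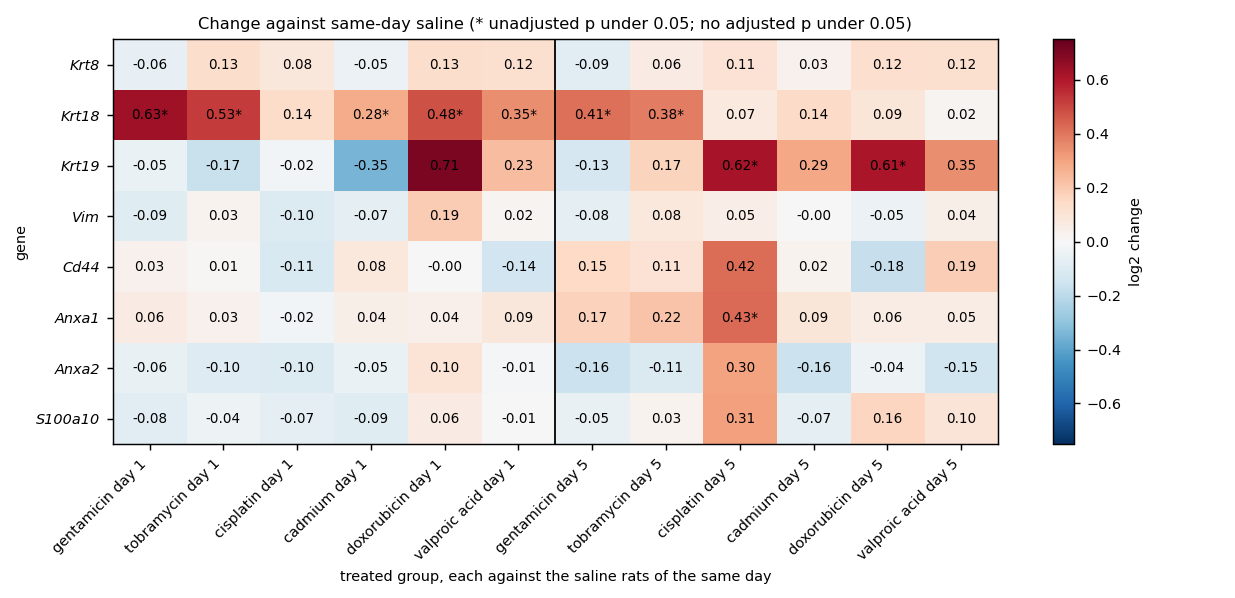
Heat map of the log2 change of the 8 genes (rows) in 12 treated groups (columns), each against the saline rats of its day; numbers are the changes, colour runs from blue (lower) to red (higher), and stars mark an unadjusted p under 0.05. Krt18 is above 0 in all 12 columns, and the cisplatin day 5 column is the 1 column in which all 8 genes are above 0.

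Of the 3 keratins, Krt18 was the 1 that lay above saline throughout. It was higher than in saline rats in 12 of 12 comparisons, by 0.02 to 0.63, with an unadjusted p under 0.05 in 7 of them and an adjusted p under 0.05 in none. In the 7 saline rats of day 1 its signal was 194, 217 and 279 in the males and 275, 279, 279 and 290 in the females. Gentamicin rats at day 1 gave 261, 301 and 518 in males and 379, 433 and 604 in females. Male 2M10, at 261, lay within the saline range, and the other 5 rats lay above all 7 saline rats. The change was 0.63 (SE 0.14, 1.55-fold, adjusted p 0.40 in limma, 0.0854 in the fit on all arrays), and 6 of 6 rats exceeded the saline mean of their sex.

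Tobramycin, the second aminoglycoside, gave at day 1 a Krt18 signal of 199, 330 and 370 in males and 448, 458 and 490 in females. Male 4M28 was within the saline range, and the other 5 rats were above it. The change was 0.53 (SE 0.13, 1.44-fold, limma adjusted p 0.12). Without rat 4M28 it was 0.65, with an adjusted p of 0.00576, so whether Krt18 passed here turned on that 1 rat. For doxorubicin at day 1 the 6 values were 327, 372 and 404 in males and 305, 345 and 433 in females, and the groups did not overlap. The change was 0.48 (SE 0.10, limma adjusted p 0.144), and 0.55 with an adjusted p of 0.0492 without female 6F147, the lowest of the group. The shares of all genes that passed without 4M28 or without 6F147 are not given here, so these calls lack that background. The share of all genes whose groups did not overlap was not counted. Valproic acid (0.35, SE 0.09) and cadmium (0.28, SE 0.09) followed at day 1, and cisplatin was at 0.14 with a 95% interval from -0.07 to 0.35.

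At day 5 the saline rats themselves spread more widely in Krt18: 218, 300 and 213 in males and 430 and 372 in females. Gentamicin rats had 294 to 506 (median 438) and tobramycin rats 192.1 to 609.5 (median 490). Their changes were 0.41 (SE 0.18) and 0.38 (SE 0.17), with limma adjusted p of 0.762 and 0.936, and the groups overlapped. Without saline rat 1F106 they were 0.46 and 0.33. The other 4 treatments were at 0.02 to 0.14. Without any scaling of the arrays Krt18 was higher in 9 of 12 comparisons and above the median of all genes in 12 of 12, since that median itself then ranged from -0.31 to 0.15.

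Krt8, the type II partner of Krt18, was much steadier. Over the 89 rats its signal ran from 729 to 1274 with a median of 931, and group means of log2 values spanned 0.36, from gentamicin day 1 to doxorubicin day 5. Its changes lay between -0.09 and 0.13, 9 of 12 of them above 0, and the smallest unadjusted p was 0.0916. Away from saline, an unadjusted p under 0.05 was found for doxorubicin day 1 against naive rats (0.12, limma adjusted p 0.244) and between the aminoglycosides at day 1: 747 to 885 with gentamicin and 897 to 1041 with tobramycin, groups that did not overlap. The latter difference was -0.20 (SE 0.07, limma adjusted p 0.581), in a comparison where 0% of all genes passed and 7.24% had an unadjusted p under 0.05. How many of all genes did not overlap there was not counted.

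Krt8 and Krt18 are neighbours in the rat genome: Krt8 lies at chr7:135002886-135010339 on the minus strand and Krt18 at chr7:135036168-135039844 on the plus strand (RefSeq, GRCr8). Within groups and sexes their log2 values correlated weakly over 89 rats, with Pearson r 0.317 (permutation p 0.00644 within group and sex, adjusted over 2 pairs 0.00644) and Spearman rho 0.328 (permutation p 0.00967). Without the 2 rats farthest out in Krt8, r was 0.354. In the 18 control rats alone r was 0.186 (permutation p 0.384). Their promoter windows, 250 bases before to 50 bases after the annotated start, are shown because the proteins of the pair assemble together and the genes are neighbours. Capitals mark matches on either strand to the AP-1 motif TGANTCA, to the TATA box TATAAA and to the GC box GGGCGG. The windows are at chr7:135010290-135010589 (minus strand) and chr7:135035918-135036217 (plus strand).
Krt8: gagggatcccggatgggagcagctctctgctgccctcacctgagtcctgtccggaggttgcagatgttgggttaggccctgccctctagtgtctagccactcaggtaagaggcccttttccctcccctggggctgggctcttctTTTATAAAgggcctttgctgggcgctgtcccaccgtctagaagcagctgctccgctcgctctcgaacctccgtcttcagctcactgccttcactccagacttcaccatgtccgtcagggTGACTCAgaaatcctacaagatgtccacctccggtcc
Krt18: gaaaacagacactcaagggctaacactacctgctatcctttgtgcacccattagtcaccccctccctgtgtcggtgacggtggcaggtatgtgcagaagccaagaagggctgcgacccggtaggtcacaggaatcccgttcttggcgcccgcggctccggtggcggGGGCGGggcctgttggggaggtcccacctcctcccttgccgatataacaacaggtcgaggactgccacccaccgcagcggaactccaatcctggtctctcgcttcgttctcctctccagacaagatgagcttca
The Krt8 window holds an AP-1 match at 13 bases after its start and TATA box matches on both strands, overlapping, at -106 and -104. Its annotated start falls on an ATG, so these positions count from there. The AP-1 match lies in the reading frame after that ATG, not upstream of the gene. The Krt18 window holds 1 GC box match at -84 and neither of the other motifs. Among all 33469 windows of 300 bases, 7.33% hold the AP-1 motif, 14.2% the TATA box and 33.1% the GC box.

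Krt19 varied most between rats. Its signal ran from 41.1 to 424 over the 89 rats, and the median SD within a group was 0.63 on the log2 scale, against 0.14 for Krt8 and 0.32 for Krt18. Group means ran from 112.2 ± 70.3 (SD, n = 6) in gentamicin rats of day 5 to 260 ± 112.5 (SD, n = 6) in doxorubicin rats of day 1, and none of the 14 steps between neighbours in that order exceeded the larger SD of the pair.

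Of the 12 treated groups, only cisplatin at day 5 did not overlap its saline rats in Krt19. Saline rats of that day had 141.3, 130.9 and 111.5 in males and 111.6 and 83.7 in females. Cisplatin rats had 280, 144 and 226 in males and 164.7, 148.96 and 145 in females. The lowest cisplatin rat lay just above the highest saline rat, so the gap between the groups was small. Groups without overlap occurred in 2 of the 96 tests, and their share over all genes was not counted. The saline rats varied little, with an SD of 0.25 on the log2 scale against the median of 0.63 over groups. The change was 0.62 (SE 0.15, 1.54-fold, limma adjusted p 0.391), 0.52 to 0.74 when single rats were left out and 0.57 without saline rat 1F106. Doxorubicin rats of day 5 had 345 and 200 in males and 117, 94.3 and 153 in females. Their change was 0.61 (SE 0.20, limma adjusted p 0.363), 0.39 without male 6M49, the highest, and 0.62 without saline rat 1F106. In the fit on all 89 arrays, which shares 1 spread over all groups, the cisplatin change was 0.61 (SE 0.37, adjusted p 0.514) and the doxorubicin change 0.53 (SE 0.38, adjusted p 0.680). Rat 6M49 also had the highest injury markers of its group, with Havcr1 at 1158 against 12.7 to 35.3 in the other 4, Lcn2 at 551 against 49.1 to 61.0, Clu at 3641 against 640 to 1094 and Spp1 at 7539 against 2073 to 4497. Its mean change over the 8 genes was 0.399, with 7 of 8 higher, against -0.086 to 0.069 in the other 4. At day 1 doxorubicin rats had 99.2 to 424 (median 248) against 59.1 to 250 (median 122.04) in saline rats, a change of 0.71 with a 95% interval from -0.09 to 1.51.

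The 3 genes whose log2 values followed Krt19 most closely over all 89 rats were Krt15 (r 0.643), Upk1b (r 0.632) and Upk1a (r 0.628), a keratin of stratified epithelium and uroplakins, the membrane proteins of the urothelium. The 6 urothelial markers summed to 122.04 to 352 (median 243) in cisplatin rats of day 5 and to 121.1 to 437 (median 205) in their saline rats, and rat 3M22, the highest in Krt19, had the lowest sum of its group. In doxorubicin rats the sum was 176 to 567 (median 399) at day 1 and 203 to 574 (median 394) at day 5, against 67.3 to 577 (median 165) and the values above in saline rats. All 6 markers were higher in doxorubicin rats at day 1, against 55.3% of all genes, 0 of 6 passed and 1 had an unadjusted p under 0.05. Upk2 and the basal keratin Krt5 exceeded the filter limit on 32 and 30 of 89 arrays. The part of urothelial tissue in the Krt19 values under cisplatin or doxorubicin was not tested.

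**Figure D2:**
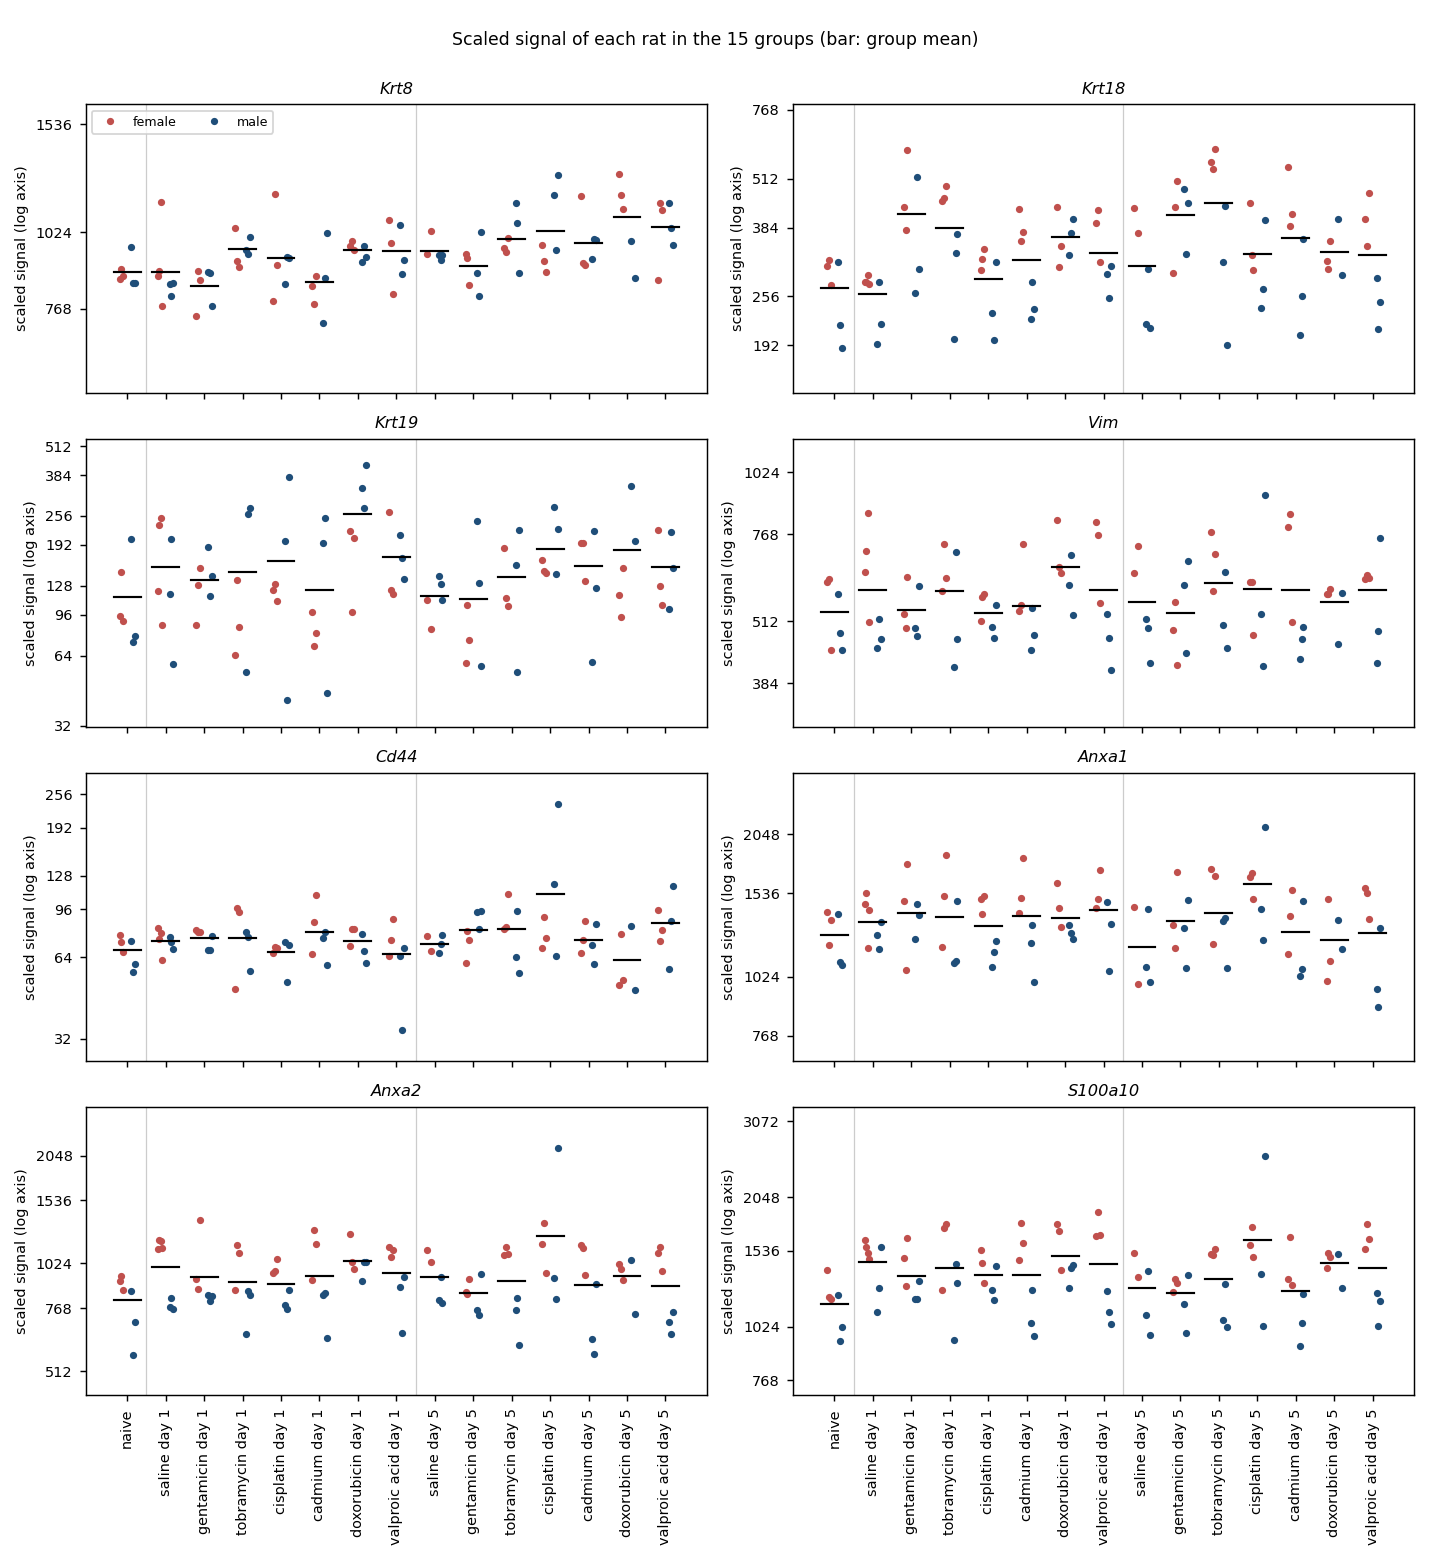
Scaled signal (log axes) of 8 genes in 89 rats; columns are the 15 groups, red points are females, blue points males, and black bars group means. Krt19 has the widest scatter within groups, 1 male of cisplatin day 5 tops the Cd44, Anxa1, Anxa2 and S100a10 panels, and red points lie above blue ones in most groups of the Anxa2 and S100a10 panels.

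Vimentin passed in no group. Its signal ran from 407 to 920, with group means from 532 ± 43.3 (SD, n = 6) in cisplatin rats of day 1, close to those of gentamicin day 5 and naive rats, to 658 ± 97.4 (SD, n = 6) in doxorubicin rats of day 1. Changes were between -0.10 and 0.19, 6 of 12 above 0, and the smallest unadjusted p was 0.101. Its 95% intervals reached at most from -0.41 to 0.44 over the 12 comparisons. The genes most like it were Gja4 (r 0.639), an endothelial connexin, Itgb4 (r 0.623) and Trib3 (r 0.620).

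Cd44 was dim in nearly every rat, with a median signal of 74.0 against a filter limit of 33.2, and it reached its highest signals under cisplatin at day 5. Saline rats of that day had 66.4, 71.8 and 77.0 in males and 76.6 and 67.2 in females. The cisplatin males had 236 (rat 3M24), 119.2 (rat 3M22) and 64.6 (rat 3M23), and the cisplatin females 69.1, 90.2 and 75.5. Males 3M24 and 3M22 and 1 female exceeded all 5 saline rats, and the other 3 lay within or just below the saline range. The change was 0.42 with a 95% interval from -0.08 to 0.92 (limma adjusted p 0.645), 0.18 without rat 3M24 and 0.46 without saline rat 1F106. A second Cd44 probe set correlated with the first at r 0.655 over 89 rats and was above the filter limit on 62 arrays. It gave 165 in rat 3M24, 79.9 in rat 3M22 and 39.9 to 54.8 in the other 4, against 20.2 to 38.3 in saline rats. Its change was 0.86 (SE 0.25), with an unadjusted p of 0.0043. At day 5 it was also higher with gentamicin (0.35, SE 0.16) and tobramycin (0.45, SE 0.19), with limma unadjusted p of 0.0458 and 0.0349. The first probe set gave 0.15 and 0.11 there. Valproic acid gave 0.45 (SE 0.22, limma unadjusted p 0.0628) in the second probe set, doxorubicin 0.13 and cadmium -0.05. All share the saline rats of day 5, whose mean log2 value in it was 5.504, against 5.684 in naive rats and 5.737 in saline rats of day 1. Of these 5 saline rats, 2 did not exceed the filter limit in it.

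Anxa1 was highest under cisplatin at day 5 as well. The cisplatin rats had 1424, 1222 and 2120 in males and 1660, 1697 and 1495 in females, and the saline rats 1074, 1423 and 996 in males and 1435 and 989 in females. Of the cisplatin rats, 4 exceeded all saline rats and 2 did not. The change was 0.43 (SE 0.15, 1.34-fold, limma adjusted p 0.541), 0.31 without rat 3M24 and 0.34 without saline rat 1F106. The other 11 comparisons gave -0.02 to 0.22. Against doxorubicin rats of the same day the cisplatin rats were 0.38 higher in Anxa1 (SE 0.14, limma adjusted p 0.522), the 1 gene of 8 with an unadjusted p under 0.05 there, where 0.0788% of all genes passed and 7.98% had such a p. Cd44 gave the larger difference there, 0.53 with a 95% interval from -0.01 to 1.08 (limma adjusted p 0.646). In the fit on all arrays the limma adjusted p was 0.0677 for Cd44, 0.156 for Anxa1 and 0.336 for Anxa2. Without array scaling Cd44 passed (0.74, limma adjusted p 0.0342), where 126 genes passed in all, against 9 with scaling. Its signal was 236 in cisplatin rat 3M24, 64.6 to 119.2 in the other cisplatin rats and 48.4 to 83.5 in doxorubicin rats. This comparison was not refitted without rat 3M24, so how far the Cd44 difference rests on that rat was not tested. Macrophage and granulocyte markers were also higher in cisplatin than in doxorubicin rats, in 10 of 10 tested genes, against 51.1% of all genes. Their sums were 2636 to 3790 (median 3462) against 1802 to 3179 (median 2439), and 3051 to 3681 (median 3553) in saline rats of day 5. The marker sums thus were low in doxorubicin rats rather than high in cisplatin rats. In Anxa1 doxorubicin rats were 0.06 above saline. The part of these markers in the Anxa1 difference was not tested. The genes most like Anxa1 over 89 rats were Btg1 (r 0.728), Cd2ap (r 0.690), an adaptor of the podocyte slit diaphragm, and the thiamine transporter gene Slc19a2 (r 0.682).

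Anxa2 and S100a10, the subunits of the heterotetramer, moved together from rat to rat. Their log2 values correlated within groups and sexes at r 0.788 (permutation p 1e-05, the smallest that 100000 permutations can give, adjusted over 2 pairs 2e-05) and at rho 0.679 (permutation p 1e-05). Without the 2 rats farthest out in Anxa2, 3M24 and 3M23, r was 0.672, and in the 18 control rats alone it was 0.588 (permutation p 0.0416, adjusted over 2 pairs 0.0832). Each was also the gene most like the other over all 89 rats (r 0.781), followed for Anxa2 by S100a11 and Cldn4 and for S100a10 by Cd24 and Btg1. RefSeq (GRCr8) places Anxa2 at chr8:78986252-79022638 and S100a10 at chr2:181904454-181913101, on separate chromosomes. The Anxa2 promoter window, at chr8:78986002-78986301 on the plus strand, is shown with the same motifs in capitals.
Anxa2: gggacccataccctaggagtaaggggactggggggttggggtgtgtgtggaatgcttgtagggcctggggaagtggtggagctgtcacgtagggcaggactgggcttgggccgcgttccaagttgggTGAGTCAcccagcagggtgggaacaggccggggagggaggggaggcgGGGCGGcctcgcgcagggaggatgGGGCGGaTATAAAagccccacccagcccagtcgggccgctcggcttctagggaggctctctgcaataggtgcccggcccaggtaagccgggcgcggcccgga
It holds an AP-1 match at -123, a TATA box match at -45 and GC box matches at -76 and -52, and of the 6 windows matched to the 8 genes it alone holds all 3 motifs. The windows of Vim and Anxa1 hold TATAAA too, and that of Vim a GC box.

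**Figure D3:**
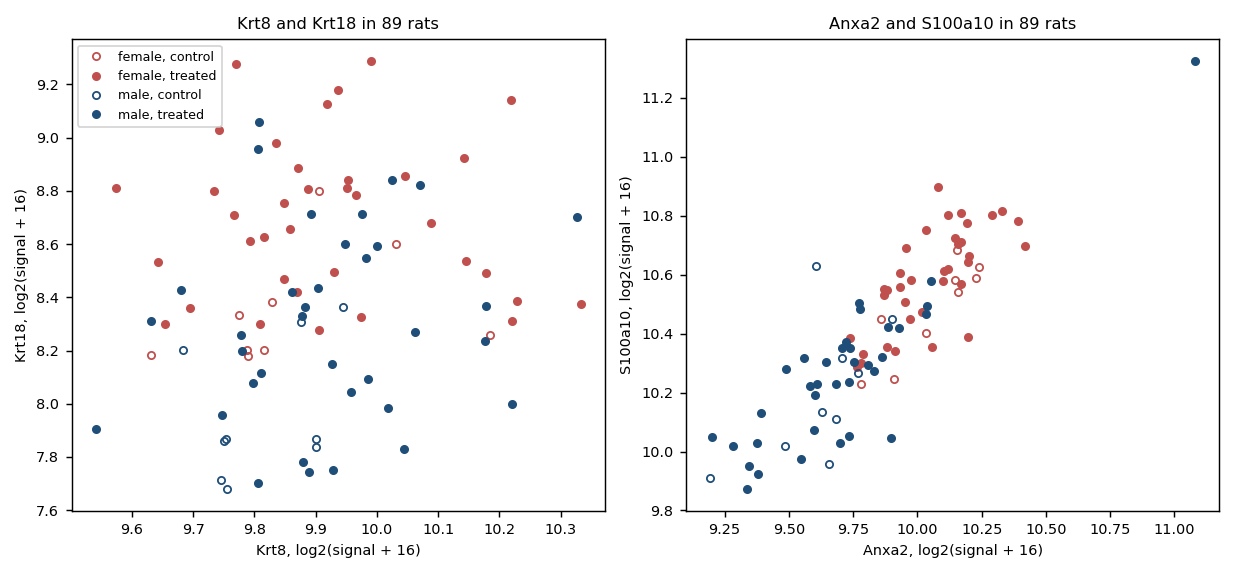
Log2(signal + 16) of Krt18 against Krt8 (left) and of S100a10 against Anxa2 (right) in 89 rats, filled points for treated and open points for control rats, red for females and blue for males. The right-hand cloud is narrow (r 0.788 within group and sex) with 1 treated male at its upper end, and the left-hand cloud is diffuse (r 0.317).

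Against saline of the same day neither subunit changed under any treatment by the adjusted p. Anxa2 was lower in 10 of 12 comparisons and S100a10 in 7 of 12, by at most 0.16 and 0.09. Cisplatin at day 5 was the largest in both, 0.30 (95% interval -0.15 to 0.75) and 0.31 (95% interval -0.09 to 0.71). Male 3M24 had an Anxa2 signal of 2149 and an S100a10 signal of 2550, against 814 to 1327 and 1029 to 1747 in the other 5 cisplatin rats and 792 to 1118 and 978 to 1516 in saline rats. Without it the changes were 0.06 and 0.11, and without saline rat 1F106 they were 0.32 and 0.31. The second Anxa2 probe set was above the filter limit on 0 of 89 arrays and correlated with the first at r 0.074, so it adds no reading of the gene.

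The control groups also differed somewhat in these subunits. Saline rats of day 1 had more Anxa2 than naive rats (764 to 1194 against 569 to 945, a change of 0.26, SE 0.08) and more S100a10 (1109 to 1631 against 947 to 1384, a change of 0.30, SE 0.08). Neither passed, with limma adjusted p of 0.427 and 0.332, where 0% of all genes passed and 8.14% had an unadjusted p under 0.05. Saline rats of day 5 exceeded naive rats in Anxa2 by 0.26 (SE 0.10, limma adjusted p 0.780) and by 0.28 without rat 1F106, where 0% of all genes passed and 5.91% had an unadjusted p under 0.05. With naive rats as the control in place of saline, S100a10 passed for doxorubicin at day 1 (0.36, SE 0.08, limma adjusted p 0.0294) and 6 of the 8 genes had an unadjusted p under 0.05. All 8 were higher there, with a median of 0.328 against 0.031 for all genes. In that comparison 2.13% of all genes passed and 18.8% had an unadjusted p under 0.05.

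Against saline of the same day, cisplatin at day 5 was the 1 treatment in which all 8 genes were higher, against 50.6% of all genes. The median change of the 8 was 0.304 (0.315 without saline rat 1F106), against 0.003 for all genes. A single rat set much of that median. The mean change of the 8 genes was 0.962 in male 3M24 and 0.354 in male 3M22, and -0.031 to 0.174 in the other 4 rats. Without rat 3M24 the median was 0.087, Vim (-0.14) and Krt18 (-0.06) were below saline, and Krt19 (0.59) and Anxa1 (0.31) were the largest. Havcr1 and Lcn2 were highest in the same pair of rats. Havcr1 had signals of 3571 in rat 3M24 and 1205 in rat 3M22, 75.7 to 208 in the other cisplatin rats and 13.9 to 46.3 in saline rats. Lcn2 had 957 and 276 in these males, against 65.1 to 138.9 and 49.8 to 86.6. Rat 3M24 also had the highest Clu (2840) and Spp1 (6896) of the group.

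**Figure D4:**
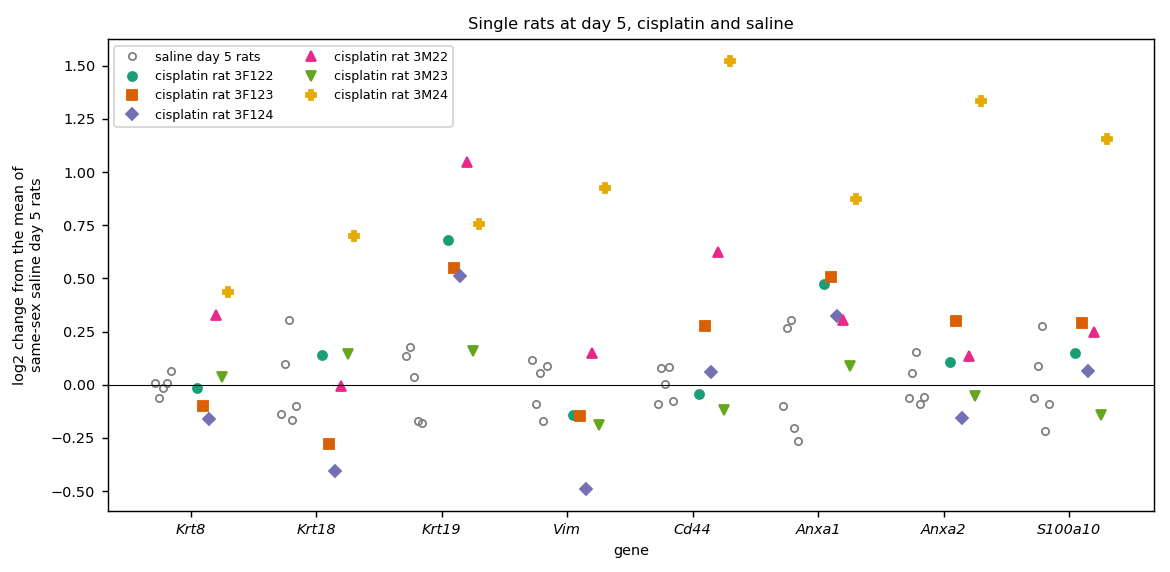
Log2 change of each cisplatin rat of day 5 (coloured symbols) and each saline rat of day 5 (open circles) from the mean of the saline rats of its sex, for the 8 genes. Rat 3M24 is highest in 7 of the 8 genes, with Krt19 highest in rat 3M22, and only Krt19 and Anxa1 have all 6 cisplatin rats above 0.

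Marker sums of rat 3M24 lay within the range of the 5 saline rats for macrophages and granulocytes (3511 against 3051 to 3681), fibroblasts and smooth muscle (3854 against 3611 to 6442) and urothelium (342 against 121.1 to 437). They lay below it for loop and distal tubule (10436 against 12430 to 16531), endothelium (3157 against 3640 to 5726) and, slightly, proximal tubule (43204 against 43501 to 58559). The part of these in its values was not tested. The GAPDH 3' to 5' log2 ratio of its array was 0.352, the median of its group.

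The lists of related genes gave 0 members that passed for cisplatin at day 5, where 50.6% of all genes were higher. Of 19 tested dedifferentiation and regrowth genes, 14 were higher with a median of 0.177, and Havcr1 (3.01, SE 0.89) and the TWEAK receptor gene Tnfrsf12a (1.31, SE 0.30) were the largest. In the fit on all arrays Havcr1 and Tnfrsf12a passed, with limma adjusted p of 0.00725 and 0.0104. Of 12 tested CD44 ligands and cortex partners 11 were higher (median 0.182), led by the ligand Spp1 (0.85, SE 0.34) and the heparan sulfate proteoglycan Sdc1 (0.44, SE 0.15). Of 16 other annexin and S100 genes 9 were higher (median 0.031), and of 12 other keratin and filament genes 8 were higher (median 0.093), with Krt10 at -0.30. These values include rat 3M24, the highest of the group in Havcr1 (3571) and Spp1 (6896). The lists were not counted without it, so how far they rest on that rat was not tested.

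For doxorubicin at day 1 the 16 other annexin and S100 genes had a median of 0.196 with 15 higher, and the 12 other keratin and filament genes 0.091 with 12 higher, against 0.016 for all genes. None of them passed in limma, and 7 and 3 had an unadjusted p under 0.05. Of all genes 55.3% were higher there and 9.62% had such a p. Collecting duct markers were higher there in 11 of 11 genes (median 0.223), and their sum was 9935 to 13023 against 7603 to 11416 in saline rats. The part of that cell type in these values was not tested.

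The change from day 1 to day 5 was tested as the difference between the effects of the 2 days. None of the 8 genes passed for any compound, where 0% of all genes passed for 5 compounds and 0.0613% for doxorubicin. For cisplatin, Anxa1 (0.44, SE 0.16) and Cd44 (0.52, SE 0.25) had an unadjusted p under 0.05, with limma adjusted p of 0.611 and 0.614, against 8.12% of all genes. Without saline rat 1F106 they were 0.35 and 0.52, with limma adjusted p of 0.887 for both. Gentamicin against tobramycin at day 5 gave none of the 8 with an unadjusted p under 0.05, and there 0% of all genes passed.

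Sex, unlike treatment, gave differences that passed. Among the 18 control rats (naive and saline, 9 females and 9 males, with the group as a term) 4 of the 8 genes passed, and each was higher in females. Of all genes 23.6% passed and 13.8% did so as higher in females, so the share is to be read against a large sex difference in the kidney at large. All 8 were above 0, as were 60% of all genes, and the median of the 8 was 0.194 against 0.055 for all genes.

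Anxa2 had a signal of 863 to 1194 (median 1118) in control females and 569 to 941 (median 792) in control males, and 2 naive females (863 and 911) lay below the highest male while the other 7 lay above it. The difference was 0.43 (SE 0.07, 1.35-fold, limma adjusted p 0.000114). Krt18 was 274 to 430 (median 290) in females and 189 to 314 (median 217) in males, a difference of 0.41 (SE 0.10, limma adjusted p 0.00540). Vim was 449 to 847 (median 640) against 421 to 582 (median 485), a difference of 0.37 (SE 0.10, limma adjusted p 0.00975). S100a10 was 1185 to 1631 (median 1474) against 947 to 1567 (median 1109), a difference of 0.27 (SE 0.08, limma adjusted p 0.0163). The sexes overlapped in all 4 genes.

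The 71 treated rats (36 females, 35 males), a comparison added after the data were seen, gave the same direction for these 4 genes, which all passed, and for Anxa1 (0.23, limma adjusted p 0.000164). Krt19 was lower in treated females (-0.37, limma adjusted p 0.0242). There 60.4% of all genes passed, and 37.8% of all genes did so as higher in females. Over the 15 groups the mean of the females exceeded that of the males in 15 for S100a10, 14 for Anxa2 and Anxa1, 13 for Vim and 12 for Krt18, against 11 for Cd44, 8 for Krt8 and 4 for Krt19. The scaling of the arrays bears on this result. Without it 0 of 8 passed, and the median of all genes moved from 0.055 to -0.080. The calls over all genes went from 1578 higher and 1121 lower in females to 212 and 536. Krt8, Krt19, Cd44 and Anxa1 turned to lower in females. Relative to the median of all genes, 7 of the 8 lay above it without scaling, 8 with scaling and 6 under quantile normalization.

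**Figure D5:**
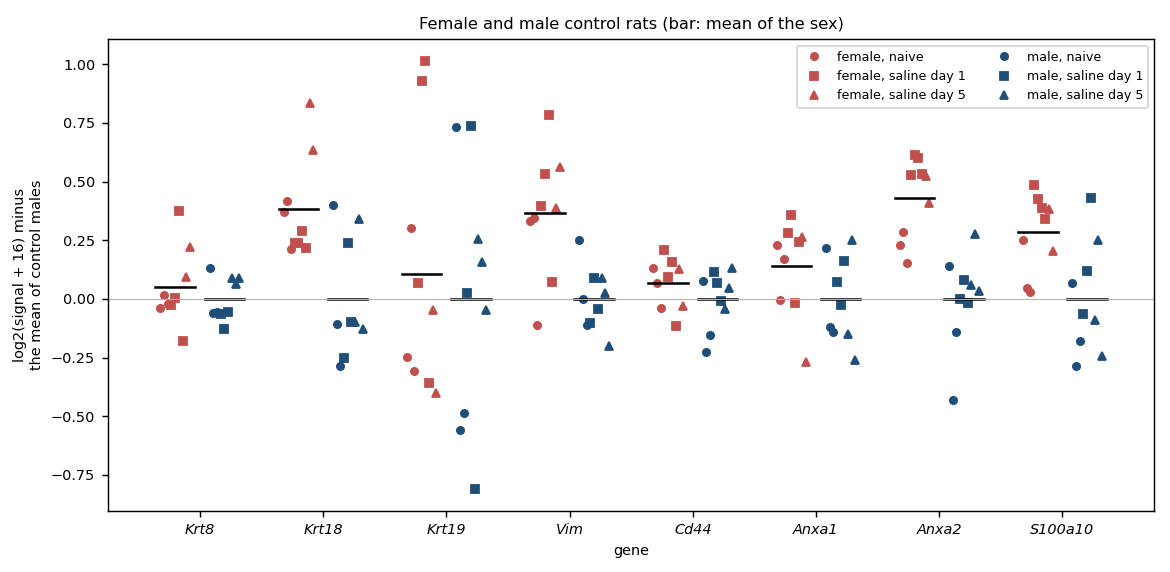
Log2(signal + 16) of 9 female (red) and 9 male (blue) control rats for the 8 genes, minus the mean of the males, with symbols for the 3 control groups and bars for the mean of each sex. Females are above males for Krt18, Vim, Anxa2 and S100a10, and the sexes are mixed for Krt8, Krt19 and Cd44.

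Related genes were counted by the same test in control rats, where 13.8% of all genes passed as higher in females. Of 16 other annexin and S100 genes 10 passed as higher and 1 as lower, among them Anxa7 (0.40), S100a6 (0.64) and S100a13 (0.43), and S100g (-1.01), the vitamin D-dependent calcium binder calbindin-D9k. Of 19 dedifferentiation genes 7 passed as higher and 2 as lower, with Itgb6 (1.296), Clu (0.82) and Cdh6 (0.78) higher and Prom1 (-0.94) lower. Of 12 other keratin and filament genes 4 passed as higher (Plec, Krt5, Des and Nes) and 0 as lower. Of 12 CD44 ligands and cortex partners Ezr and Fn1 passed as higher and Msn as lower, a share near that of all genes.

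Markers of some cell types differed by sex too. The same test is the background here, with 13.8% of all genes passing as higher in females and 1121 of 11415 as lower. The largest median was that of adipocyte markers, 1.234, with 3 of 4 passing as higher in females, followed by urothelial markers with 0.562 and 2 of 6. Collecting duct markers passed as higher in 5 of 11 genes (median 0.248), endothelial markers in 5 of 9 (median 0.228) and podocyte markers in 2 of 6 (median 0.288). Fibroblast and smooth muscle markers did so in 2 of 11 and macrophage markers in 1 of 10, shares near that of all genes. Proximal tubule markers passed as lower in 5 of 13 and as higher in 1, and loop and lymphocyte markers in 0. The part of the cell make-up of the pieces in the sex differences of the 8 genes was not tested.

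The effect of a treatment at day 5 was also compared between the sexes. None of the 8 genes passed for any compound, where 0.00876% of all genes passed for gentamicin and 0% for the other 5. The gentamicin effect in females minus that in males was -0.74 (SE 0.31) for Krt18 and -0.71 (SE 0.24) for Vim. Mean Vim was lower with gentamicin in females (490 against 683 in saline) and higher in males (575 against 478). Mean Krt18 was 411 against 401 in females and 417 against 244 in males. The limma adjusted p was 0.363 for Krt18 and 0.324 for Vim, in a comparison where 12.9% of all genes had an unadjusted p under 0.05. For doxorubicin Krt18 gave -0.78 (SE 0.27, limma adjusted p 0.594), where 7.27% of all genes had one. The saline arm holds 2 females at day 5. Without 1F106, 1 of them, the 3 values were -0.84, -0.63 and -0.88, and the remaining female is then assumed to vary like the other rats.

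Array quality moved with some of the 8 genes. Within groups and sexes the GAPDH 3' to 5' log2 ratio of an array, a measure of RNA integrity, correlated over 89 rats with Krt8 (r 0.458), Vim (r 0.337) and Anxa1 (r -0.352). Adding that ratio as a term, an alternative chosen after the data were seen, moved the 12 treatment changes of Krt8 by up to 0.087, of Vim by up to 0.179 and of Anxa1 by up to 0.145. The Anxa1 change under cisplatin at day 5 was then 0.33 and its unadjusted p was no longer under 0.05. The trimmed mean of the arrays before scaling ran from 91.5 to 352, and its correlations with the 8 genes after scaling were between -0.15 and 0.17. The genes most like Krt8 over 89 rats were Rpl3 (r 0.626), a ribosomal protein gene, Rack1 (r 0.541) and Thyn1 (r 0.541). Those most like Krt18 were Dcdc2 (r 0.657), Guca2a (r 0.648) and S100a11 (r 0.637), and those most like Cd44 were Pvr (r 0.622), Klf6 (r 0.591) and Anxa2 (r 0.587). The genes most like each of the 8 are the highest of all tested genes and are given as a description. Their r values include differences between groups, unlike those within groups and sexes.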

How the data were processed

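Kidney RNA of 89 rats was hybridised to 1-colour Affymetrix arrays, and the authors deposited 1 linear MAS5 intensity per probe set (per the submitters' processing notes, MAS5; its version is not given in the sources used here). The 8 genes, the related gene lists and the motifs were chosen with earlier results of these data known. Arrays were scaled to a common 2% trimmed mean of 181, since deposited means differed 3.84-fold, and taken as log2(signal + 16). Control probe sets (57), those with several symbols (436) and those with none (9780) were left out, each gene kept its brightest probe set, and genes needed 5 arrays above the 40th percentile (33.2). Symbols came from the platform annotation, and positions and promoters from RefSeq GRCr8. limma 3.58.1 (R 4.3.3; trend and robust) fitted the 2 groups compared with sex as a term, with Benjamini-Hochberg adjustment over 11415 genes, and was tested on simulated data. Correlations of the 2 gene pairs and those with array quality used residuals within group and sex, the pairs with 100000 permutations within these. The lists of genes most like each of the 8 kept the differences between groups and had no permutation test. The named genes of a list are up to 4 that passed by smallest adjusted p, or else the 2 largest changes. Rats are separate animals, the number of arrays limits the precision, and alternatives changed scaling, pseudocount, filter, probe sets, samples, controls and model terms.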

Additional observations from a re-analysis of the deposited data

Results flagged for a closer look

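In 7 of 120 groups tested, 8 genes in 15 groups, 1 rat lay far from the rest by Dixon's criterion, and chance flags about 1 in 20 groups. Krt8 was high in saline rat 1F103 of day 1 (1148, next 885), saline rat 1F106 of day 5 (1030, next 943) and cadmium rat 5F140 of day 5 (1175, next 997). Vim was low in doxorubicin rat 6M49 of day 5 (460, next 582). Cd44 was low in cisplatin rat 3M20 of day 1 (51.6, next 66.3) and in valproic acid rat 7M56 of day 1 (34.3, next 64.8). Anxa2 was high in gentamicin rat 2F112 of day 1 (1351, next 927). The arrays of rats 1F106 and 5F140 also had the 2 highest GAPDH 3' to 5' log2 ratios of the 89, 1.579 and 1.454, and the part of RNA integrity in their Krt8 values was not tested.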

How the results depend on the processing

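Besides leaving out single rats, other settings moved the count of passing genes in 3 comparisons. For doxorubicin at day 1 it was 1 with naive rats as control. For cisplatin against doxorubicin at day 5 it was 1 (Cd44) without array scaling, where 126 genes passed in all. That comparison was not refitted without rat 3M24, the highest in Cd44. For the sexes in control rats it was 0 without array scaling, 3 without the 5 rats of absent or differing treatment text (S100a10 0.26, limma adjusted p 0.0635), 5 with array weights and 6 in treated rats. Leaving out single rats gave 0 to 1 for tobramycin at day 1 (1 without 4M28) and 0 to 1 for doxorubicin at day 1 (1 without 6F147), and 4 for the sexes in all 18 cases. Shares of all genes are not given here for the counts without single rats, without the 5 rats or with array weights. The Krt8 to Krt18 correlation was 0.186 in control rats only. The Anxa2 to S100a10 correlation was 0.588 there, with a permutation p of 0.0416 and an adjusted p of 0.0832. Sex differences that had not passed turned over for Krt8 at -0.088 without scaling and -0.0041 in treated rats, for Krt19 at -0.059 and -0.37, and at -0.085 to 0.21 without single rats (below 0 without 1M3 or 1F103), for Cd44 at -0.063 and for Anxa1 at -0.031 without scaling. The cause of these moves was not tested. Single-gene alternatives cover sex and the pairs of gene and treatment at an unadjusted p under 0.05, chosen after results were seen. No paired analysis was possible because the codes link no rats across groups. The number of rats and, for Cd44, a signal near the filter limit set the precision.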
